A study of Homo sapiens with 6 samples.

Results

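The genes described here carry out DNA replication or control the passage from G1 into S phase. They were taken from a fixed list of 41 symbols that covers the replicative helicase, origin licensing, the clamp loader, the polymerases, nucleotide synthesis, G1/S cyclins and E2F factors. Of these, 40 were found by Ensembl ID among the 33644 genes of the processed table, all 40 had an adjusted p, and E2F1 was not analysed here. The list was not chosen by measured values, but it was chosen with earlier results of these data known.

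The series set alt-LAMA3 KO derivatives of HEK293T cells against WT HEK293T cells. HEK293T is a human embryonic kidney line. It carries large T antigen of SV40, a viral protein that binds the retinoblastoma protein and thereby releases E2F factors. The labels give 3 alt-LAMA3 KO and 3 WT samples, all at day 0 with no treatment applicable, and do not say whether the KO cells are 1 clone or whether replicates are separate cultures. The spread behind each p-value may therefore be technical. The authors' deposited table holds 1 comparison between 2 groups that its header does not name, and no value per sample. Nothing in the table ties its values to the labelled samples, and whether it was made from them could not be checked. The group on top of the fold change is named here the numerator group, and the one it is set against is the denominator group. Neither is taken to be KO or WT, so no effect of the knockout is stated. LAMA3 itself, for which alt-LAMA3 is named, had a log2 fold change of -0.62 (adjusted p = 0.578, SE 0.69) at a mean normalized count of 19.0 per the authors' deposited table, which does not settle the direction; the transcript alt-LAMA3 has no value of its own there.

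The labelled cell type was checked against marker genes. Of 9 genes typical of HEK293-derived cells, the authors' deposited table lists NEFL, NEFM and SALL1 at 0 and gives mean normalized counts of 3.42 for KRT8, 1.45 for KRT18 and 3.46 for CDH2. PAX2, LHX1 and EYA1 were at 0.829, 7.94 and 0.241 per the authors' deposited table. All 8 T-lymphocyte markers were present, with mean normalized counts between 369 (CD3G) and 27074 (CD8A) per the authors' deposited table. These markers therefore went against the label, the table may come from other samples than those labelled, and the cells are called here only the cells of the table. Of the T-lymphocyte markers, 6 of 8 were lower in the numerator group and 0 were higher, against 14.8% and 14.7% of all genes tested. The median log2 fold change of these markers was -0.57. The part of these markers in the results below was not tested, and in bulk RNA fewer cells of a type and less RNA per cell cannot be told apart.

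Replication starts at origins bound by the origin recognition complex (ORC). In G1, CDC6 and CDT1 load the ring of MCM2 to MCM7 there, and in S phase CDC45 and the GINS complex turn that ring into the active helicase. DNA polymerase alpha with primase starts each strand, the RFC complex loads the sliding clamp PCNA, and polymerases delta and epsilon extend. D-type and E-type cyclins drive the retinoblastoma protein off E2F factors, which then switch on many of these genes, and the whole programme is active in dividing cells, activated lymphocytes and culture lines alike.

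The levels of the 40 genes spanned more than 3 orders of magnitude. A level is given here as the mean normalized count of the authors' deposited table, taken over the libraries of the authors' fit, per 1000 bases of the gene's annotated exons (GENCODE 29). The median level was 106 per 1000 bases, against 41.5 for all 12369 protein-coding genes tested. MCM7 was highest at 1835, followed by CCND3 at 709, TYMS at 695, RFC4 at 606 and RRM2 at 524 per 1000 bases. E2F2 was lowest at 0.978, followed by CDT1 at 2.44, GINS1 at 2.70, MCM6 at 6.99, CCND2 at 11.1 and FEN1 at 13.8 per 1000 bases. The table holds no spread for a mean, so neighbours in this order cannot be separated, and the whole range was 1875-fold.

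**Figure D1:**
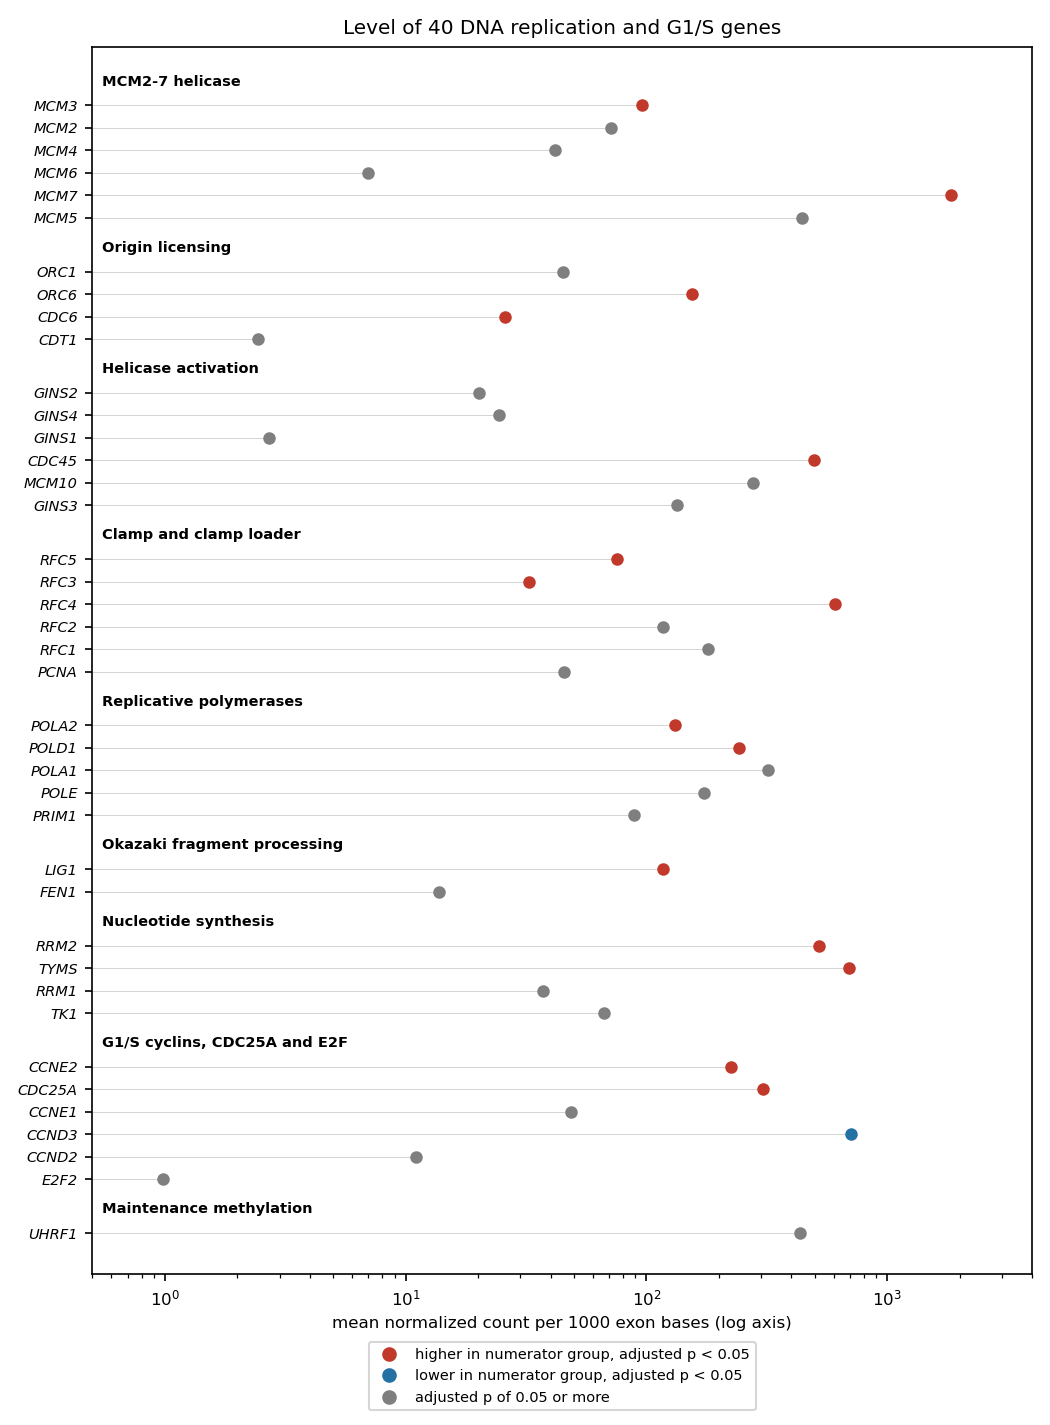
Mean normalized count per 1000 exon bases (log axis) of 40 replication and G1/S genes, grouped by complex, with colours for the call in the comparison of the numerator with the denominator group. Members of 1 complex lie far apart, from 6.99 (MCM6) to 1835 (MCM7) in the helicase ring.

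Proteins that form 1 complex had unequal mRNA levels in the table. The MCM2 to MCM7 proteins occupy the ring in equal number, yet their levels ran from 6.99 (MCM6) through 41.8 (MCM4), 71.3 (MCM2), 95.7 (MCM3) and 445 (MCM5) to 1835 (MCM7) per 1000 bases, a 263-fold range. The GINS genes stood at 2.70 (GINS1), 20.1 (GINS2), 24.4 (GINS4) and 134 (GINS3) per 1000 bases. The RFC genes and PCNA lay within an 18.5-fold range, from 32.7 for RFC3 to 606 for RFC4, and the 5 polymerase genes within a 3.62-fold range, from 88.7 for PRIM1 to 321 for POLA1 per 1000 bases. PCNA, whose protein is abundant in cycling cells, had a level of 45.5 per 1000 bases, and TK1, the salvage thymidine kinase, 66.7. Among genes outside the list, the cycling markers MKI67 and TOP2A had levels of 1745 and 17.2 per 1000 bases.

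The remaining genes lay between these extremes. Among licensing genes, ORC6 had a level of 155, ORC1 45.0 and CDC6 25.8 per 1000 bases. Of the helicase activators, CDC45 stood at 498 and MCM10 at 277 per 1000 bases. RFC1, RFC2 and RFC5 had levels of 180, 117 and 75.8 per 1000 bases. The polymerase genes POLD1, POLE and POLA2 lay close together at 242, 173 and 132 per 1000 bases. LIG1 had a level of 118 and RRM1 37.1 per 1000 bases, while RRM2, with which RRM1 forms ribonucleotide reductase, stood at 524. Of the G1/S genes, CDC25A stood at 305, CCNE2 at 225 and CCNE1 at 48.4 per 1000 bases, and UHRF1 at 433.

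Levels were higher for genes with more annotated transcripts. The 10 members with 4 or fewer transcripts in GENCODE 29 had a median level of 12.4 per 1000 bases and none was above 45.5. The 16 members with 5 to 9 transcripts had a median of 114, and the 14 with 10 or more had a median of 211 per 1000 bases. The same medians were 17.2, 36.0 and 68.0 over 2990, 4548 and 4831 protein-coding genes tested. Across the 40 members, Spearman's rho between level and number of transcripts was 0.54, and across the 12369 protein-coding genes it was 0.20, as a description of genes that share libraries. Few transcripts were annotated for ORC1, E2F2 and PCNA (2 each), CDT1, MCM6, FEN1, GINS2 and RFC3 (3 each) and GINS1 and CCND2 (4 each). MCM4 had the most transcripts, 25, at a level of 41.8 per 1000 bases.

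**Figure D2:**
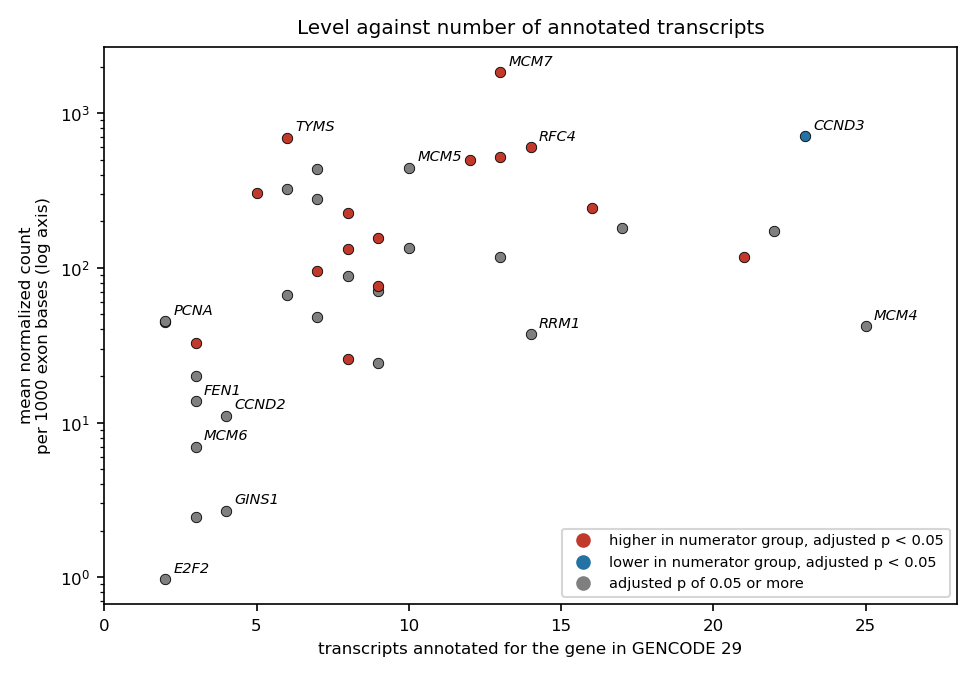
Mean normalized count per 1000 exon bases (log axis) against the number of transcripts annotated in GENCODE 29, 1 point per gene for 40 genes, coloured by call. The 10 genes with 4 or fewer transcripts lie at or below 45.5 and 1 of them was called.

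In the comparison, 15 of the 40 genes were higher in the numerator group, 1 was lower and 24 did not pass the adjusted p of 0.05 per the authors' deposited table. Over all 13957 genes tested, 14.7% were higher and 14.8% lower, 29.5% together. The median log2 fold change of the 40 genes was 0.32, against 0.00 over all genes tested, and 29 of the 40 had a positive sign. Only 2 genes were called and at least 2-fold higher, MCM3 and RFC5, where 4.13% of all genes tested were. A further 5 called genes, ORC6, CDC6, RFC3, RRM2 and TYMS, were higher by at least 1.5-fold, which made 7 of 40 against 7.52% of all genes tested. Since earlier results of these data were known when the list was drawn up, these counts are no independent evidence.

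**Figure D3:**
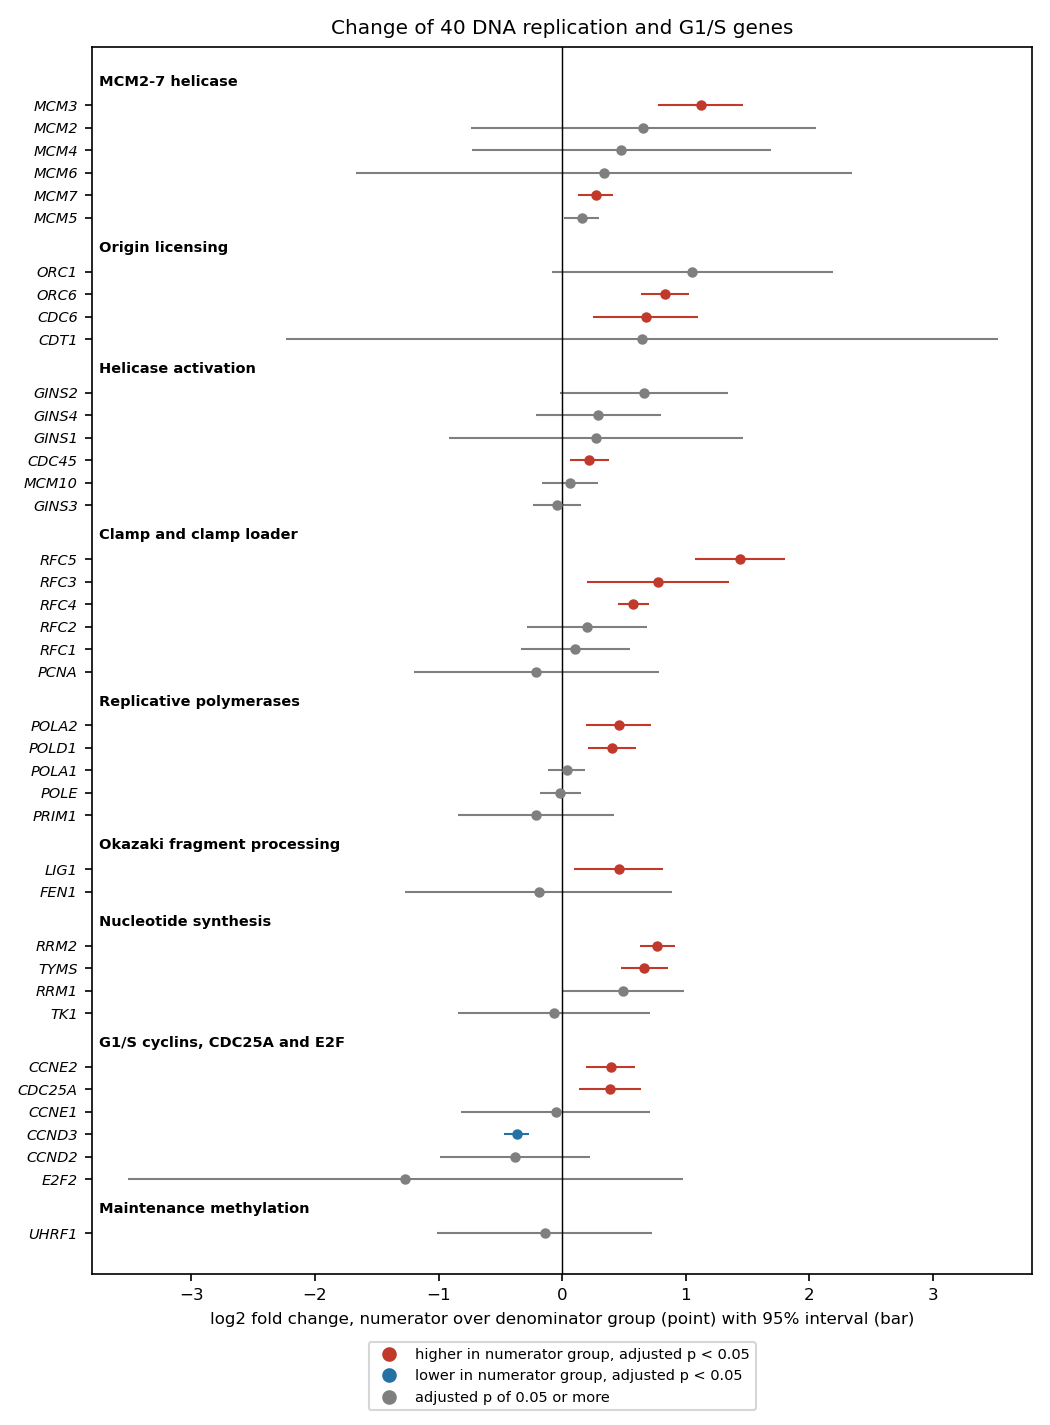
Log2 fold change of the numerator over the denominator group (point) with its 95% interval (bar) for 40 genes by complex. Calls lie to the right except CCND3, and MCM3 and RFC5 have the highest values among genes called.

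The helicase ring had 6 positive values and 2 calls, where 29.5% of all genes tested were called. In the authors' deposited table, MCM3 had a log2 fold change of 1.12 (adjusted p = 2.01e-09, standard error, SE, 0.17) at a mean normalized count of 349. Its gene (ENSG00000112118.18) lies on chromosome 6, 52264009 to 52284881, minus strand (GRCh38, GENCODE 29). MCM7 was the other call, with a log2 fold change of 0.27 (adjusted p = 0.000947, SE 0.07) per the authors' deposited table, at a mean of 8048. The 95% interval was 0.78 to 1.46 for MCM3 and 0.13 to 0.41 for MCM7, and the 2 intervals do not overlap. No test of the difference was run, since errors of genes from the same libraries may be related. MCM5 had 0.16 (adjusted p = 0.0885, SE 0.07) per the authors' deposited table and an interval that ended at 0.30. MCM2, MCM4 and MCM6 had log2 fold changes of 0.66, 0.48 and 0.34 with errors of 0.71, 0.62 and 1.02 per the authors' deposited table, so that a change of over 2-fold in the positive direction lies inside the interval for all 3, and for MCM6 also one in the negative direction.

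The origin licensing genes were all positive, with a median log2 fold change of 0.75, and 2 of 4 were called. ORC6, the smallest ORC subunit, had 0.83 (adjusted p = 9.69e-16, SE 0.10), and CDC6, the ATPase that recruits the ring, 0.67 (adjusted p = 0.00901, SE 0.22) per the authors' deposited table. ORC1, the largest ORC subunit, had a higher value of 1.05 but an error of 0.58 (adjusted p = 0.176) per the authors' deposited table. CDT1, the partner of CDC6 in loading, had 0.64 with an error of 1.47 (adjusted p = 0.817) at a mean of 8.15 per the authors' deposited table, which leaves its direction unresolved.

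Among the helicase activators, 1 of 6 was called, against 29.5% of all genes tested. CDC45 had a log2 fold change of 0.22 (adjusted p = 0.0211, SE 0.08) per the authors' deposited table. MCM10, which takes part in activating the loaded ring, had 0.06 (SE 0.12), and GINS3 -0.04 (SE 0.10) per the authors' deposited table, with 95% intervals of -0.16 to 0.29 and -0.23 to 0.15 that exclude a 1.5-fold change. GINS1, GINS2 and GINS4 had 0.28 (SE 0.61), 0.66 (SE 0.35) and 0.29 (SE 0.26) per the authors' deposited table, and none passed.

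Of the clamp and its loader, 3 of 6 genes were called higher and 0 lower, against 14.7% and 14.8% of all genes tested. RFC5, RFC4 and RFC3, small subunits of the loader, were called, with log2 fold changes of 1.44 (adjusted p = 2.09e-13, SE 0.19), 0.58 (adjusted p = 3.48e-18, SE 0.06) and 0.77 (adjusted p = 0.0293, SE 0.29) per the authors' deposited table. RFC5 (ENSG00000111445.13; chromosome 12, 118013588 to 118033130, plus strand, GRCh38, GENCODE 29) had the largest value of the 40, a 2.71-fold change, and its 95% interval of 1.07 to 1.80 lay above that of RFC4, 0.45 to 0.70. RFC2, another small subunit, had 0.20 (SE 0.25), and RFC1, the large subunit, 0.11 (SE 0.23) per the authors' deposited table, and neither passed. PCNA had -0.21 with an error of 0.51 (adjusted p = 0.830) per the authors' deposited table, and its interval of -1.20 to 0.78 includes a 1.5-fold change in either direction.

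Of the 5 polymerase genes, 2 were called higher, against 14.7% of all genes tested. POLA2, the accessory subunit of polymerase alpha, had a log2 fold change of 0.46 (adjusted p = 0.00377, SE 0.14), and POLD1, the catalytic subunit of polymerase delta, 0.40 (adjusted p = 0.000330, SE 0.10) per the authors' deposited table. POLA2 shares 35.1% of its exon bases with a protein-coding gene on the same strand (AP000944.2), which has no value in the authors' deposited table. POLA1, the catalytic subunit of polymerase alpha, had 0.04 (SE 0.08) and POLE, that of polymerase epsilon, -0.02 (SE 0.09) per the authors' deposited table. Their intervals of -0.11 to 0.19 and -0.18 to 0.15 are among the narrowest of the list. PRIM1, the catalytic primase subunit, had -0.21 (SE 0.32) per the authors' deposited table. In the processing of Okazaki fragments, the ligase LIG1 had 0.46 (adjusted p = 0.0441, SE 0.18) and the flap nuclease FEN1 -0.19 (SE 0.55) per the authors' deposited table. The call of LIG1 was the weakest of the 16, and it was lost without the filter on low means (adjusted p = 0.0667, Benjamini-Hochberg over the deposited p-values).

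In nucleotide synthesis, 2 of 4 genes were called higher, RRM2 and TYMS, against 14.7% of all genes tested. RRM1 and TK1 were not called. RRM2, the small subunit of ribonucleotide reductase, had a log2 fold change of 0.77 (adjusted p = 1.03e-24, SE 0.07), the smallest adjusted p of the 40 per the authors' deposited table. TYMS, thymidylate synthase, had 0.66 (adjusted p = 1.37e-10, SE 0.10) per the authors' deposited table. RRM1, the large subunit of the reductase, had 0.49 (adjusted p = 0.130, SE 0.25) and TK1 -0.06 (SE 0.40) per the authors' deposited table. TYMS shares 39.1% of its exon bases with ENOSF1 on the opposite strand, and reads of these 2 genes cannot be told apart unless strand was used; ENOSF1 had a log2 fold change of 0.02 (adjusted p = 0.956) per the authors' deposited table.

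The regulators of G1/S included the only gene called lower. CCND3, cyclin D3 (ENSG00000112576.12; chromosome 6, 41934933 to 42050357, minus strand, GRCh38, GENCODE 29), had a log2 fold change of -0.37 (adjusted p = 3.08e-11, SE 0.05) per the authors' deposited table, with a 95% interval of -0.47 to -0.27. CCND2, cyclin D2, had nearly the same value, -0.38, but an error of 0.31 (adjusted p = 0.403) per the authors' deposited table. The E-type cyclins were at 0.39 (adjusted p = 0.000768, SE 0.10) for CCNE2 and -0.05 (SE 0.39) for CCNE1 per the authors' deposited table. CCNE2 shares 37.0% of its exon bases with INTS8 on the opposite strand, which had 0.25 (adjusted p = 0.0909) per the authors' deposited table. CDC25A, the phosphatase that activates cyclin-dependent kinases at G1/S, had 0.39 (adjusted p = 0.0111, SE 0.13), and E2F2, an activating E2F factor, -1.27 (SE 1.15) at a mean of 5.34 per the authors' deposited table. UHRF1, which guides maintenance DNA methylation behind the fork, had -0.14 with an error of 0.44 (adjusted p = 0.870) per the authors' deposited table, although its mean was 2229.

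More members were called where the error was small. Of 16 members with a standard error below 0.15, 10 were higher and 1 lower (68.8% called), against 55.1% of 4601 genes with errors of that size. Of 9 members with errors from 0.15 to 0.30, 5 were higher (55.6%), against 28.7% of 3052 genes. Of 15 members with larger errors none was called, against 11.2% of 6304 genes. Of the 24 genes not called, 6 had a 95% interval inside a 1.5-fold change either way, namely MCM5, MCM10, GINS3, RFC1, POLA1 and POLE. The other 18 had intervals that reach past 1.5-fold, and 7 of them, MCM2, MCM4, MCM6, ORC1, CDT1, GINS1 and GINS2, past a 2-fold rise. The intervals of MCM6, CDT1, PCNA, FEN1, E2F2 and UHRF1 reach past a 2-fold fall, so those of MCM6 and CDT1 do both.

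Several errors were large for the level of the gene. Each error was set against the median error of all genes tested whose mean lay within 1.25-fold. It was above that median for 30 of the 40 and above the 90th percentile for 8, namely MCM2, MCM4, MCM6, ORC1, RFC1, PRIM1, LIG1 and UHRF1. UHRF1 stood out most, with an error of 0.44 against a median of 0.07 for 662 genes of like mean, 6.18 times as large. MCM2 had an error 4.49 times and MCM4 3.57 times the median for genes of like mean. MCM3, at the same mean as MCM2, had an error of 0.17 against 0.71. Without values per sample, the library or libraries behind these errors are not known.

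**Figure D4:**
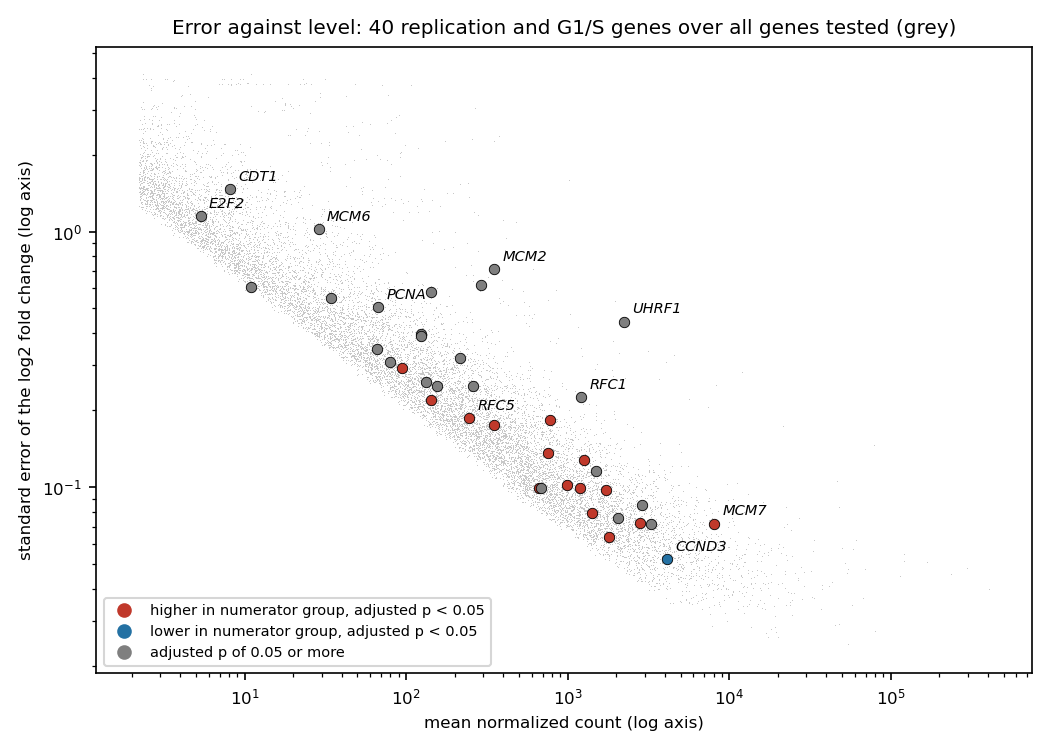
Standard error of the log2 fold change against mean normalized count (both log axes) for all 13957 genes tested (grey) and 40 replication and G1/S genes (coloured by call). UHRF1, MCM2 and RFC1 lie far above the band of genes with like means.

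Under stricter rules fewer of the 40 genes were called. Against a 1.5-fold change, 2 were higher (MCM3 and RFC5) and 0 lower, where 2.36% and 2.31% of all genes tested were; by unadjusted p under 0.05 in the same test, computed from the deposited values, 4 were higher and 0 lower. With errors widened 2.03-fold, the spread of all statistics, 6 were higher and 1 lower, beside 4.3% and 4.27% of all genes tested. At an adjusted p of 0.01, 11 were higher and 1 lower, beside 11.4% and 11.3%. Without the filter on low means, 14 were higher and 1 lower, beside 9.01% and 8.99%. With a minimum mean of 72.0, among protein-coding genes only and with centred values, 15 were higher and 1 lower each time, beside 22.5% and 23.2%, 16.1% and 16.3%, and 15.3% and 14.3%. The minimum mean left 33 of the 40 genes. It dropped MCM6, CDT1, GINS1, GINS2, PCNA, FEN1 and E2F2, none of which was called in the comparison as deposited. By size, 0 of the 40 were called and at least 1.5-fold lower, where 7.37% of all genes tested were, or at least 2-fold lower, where 3.91% were.

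E2F-type motifs were present in most promoters of these genes. RefSeq promoters (GRCh38.p14, 250 bases before to 50 after the start) were matched by symbol for 35 of the 40 genes. The E2F-type motifs searched were the letters TTCCCGC, the letters TTCGCGC, the letters TTGCCGC and the letters TTGGCGC, all on both strands, where a palindromic site can give 2 overlapping matches. A match was present in 26 of 35 promoters (74.3%), in 20.5% of the 9836 promoters matched to tested genes and in 13.0% of all 34796 promoters. It was present in 10 of 14 promoters of genes called higher and in 16 of 20 of genes not called, and that of CCND3, the gene called lower, held none. In 24 of the 35, a match lay within 60 bases of the start. The CHR element of mitotic genes, TTTGAA on both strands, was found in 1 of 35 (2.86%), that of RRM1, against 10.1% of promoters of tested genes. The 100 bases before the start follow for RFC5, the gene with the largest change, CDC25A, also called higher, and MCM6, PCNA and POLE, which were not called, 5′ to 3′ on the gene's strand with E2F-type matches in capitals. They were taken among genes whose stretch has at most 23 bases in exons annotated for the gene (GENCODE 29). Within that limit but not shown were ORC6, MCM10, GINS1, RFC1, POLA1 and RRM1, whose stretches hold no E2F-type match. E2F2, whose stretch holds 1, was also within it and not shown. The stretches printed therefore do not give the share of stretches with a match. A match is a description of the letters only.
RFC5 (chr12:118016603-118016702, plus strand): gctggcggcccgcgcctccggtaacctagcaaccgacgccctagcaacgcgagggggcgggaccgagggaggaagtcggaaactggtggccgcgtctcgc
CDC25A (chr3:48188418-48188517, minus strand): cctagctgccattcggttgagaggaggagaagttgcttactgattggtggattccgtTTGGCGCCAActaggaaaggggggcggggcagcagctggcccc
MCM6 (chr2:135876444-135876543, minus strand): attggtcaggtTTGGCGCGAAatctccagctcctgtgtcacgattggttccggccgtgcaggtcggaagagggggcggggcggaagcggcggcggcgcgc
PCNA (chr20:5126623-5126722, minus strand): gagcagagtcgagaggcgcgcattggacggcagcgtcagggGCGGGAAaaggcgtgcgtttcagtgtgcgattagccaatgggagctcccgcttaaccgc
POLE (chr12:132687343-132687442, minus strand): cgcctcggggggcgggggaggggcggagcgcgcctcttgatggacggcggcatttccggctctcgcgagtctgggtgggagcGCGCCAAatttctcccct

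RFC5 has no match in this stretch and 1 at position 16 after the start. CDC25A carries an overlapping pair at -43 and -40 from the start. MCM6 carries an overlapping pair at -89 and -86 and a further pair upstream of the stretch. PCNA carries 1 match at -59. POLE carries 1 in the stretch, at -18, and another upstream of it, at -113. For CDC25A and MCM6, the first 30 bases after the RefSeq start were not found in a GENCODE 29 transcript of the gene, so that positions from the start hold for the RefSeq start only.

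Further genes of the same pathway were more often called higher than lower. Of 80 further replication and G1/S genes, 76 were tested, 28 were higher, 5 were lower and 43 did not pass, against 14.7% higher and 14.8% lower over all genes tested. The median log2 fold change of the 76 was 0.25. Fork and firing factors had 7 of 12 higher and 0 lower, led by MTBP, which takes part in origin firing, at 1.28 (SE 0.46), and WDHD1, which couples polymerase alpha to the helicase, at 0.79 (SE 0.14) per the authors' deposited table. Further polymerase subunits, RPA and alternative clamp loaders had 6 of 14 higher and 1 lower. The 1 lower was POLE3, at -0.52 (adjusted p = 5.83e-11, SE 0.07) per the authors' deposited table. POLE3 is named after its value was seen. RPA2, a subunit of the single-strand binding protein, had 1.27 (adjusted p = 0.0486, SE 0.52) per the authors' deposited table. POLD3, an accessory subunit of polymerase delta, had 0.66 (SE 0.06) per the authors' deposited table. The call of RPA2 was lost at 0.01, against a 1.5-fold change and with widened errors. It was also lost without the filter on low means (adjusted p = 0.0735, Benjamini-Hochberg over the deposited p-values).

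Origin and licensing genes outside the list had 2 of 8 higher, ORC3 at 0.22 (SE 0.07) and MCM8 at 0.30 (SE 0.07) per the authors' deposited table. Each count of these small lists is to be read beside the 14.7% higher and 14.8% lower over all genes tested. Nucleotide supply had 3 of 7 higher, led by RRM2B, the p53-inducible reductase subunit, at 0.87 (SE 0.05) and DUT, the dUTPase, at 0.43 (SE 0.06) per the authors' deposited table. Nucleases at forks had 2 of 4 higher and 1 lower, with DNA2 at 1.13 (SE 0.29) and RNASEH2C at -0.60 (SE 0.11) per the authors' deposited table. Chromatin factors at forks had 2 of 7 higher, the maintenance methyltransferase DNMT1 at 0.38 (SE 0.07) and the histone chaperone NASP at 0.15 (SE 0.05) per the authors' deposited table.

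Of 12 tested members of the retinoblastoma family, kinase inhibitors and degradation factors, 3 were higher and 2 lower, against 14.7% higher and 14.8% lower over all genes tested. The 3 higher were CDKN1A, CDKN2D and SKP2, of which CDKN2D and SKP2 are named here after their values were seen. The 2 lower were CDKN2A and RBL2, and RBL2 is also named after its value was seen. RBL2 had a log2 fold change of -0.30 (adjusted p = 0.0297, SE 0.11) per the authors' deposited table. CDKN2D, a kinase inhibitor gene, had a log2 fold change of 0.70 (adjusted p = 1.19e-17, SE 0.08) per the authors' deposited table. SKP2 degrades the p27 inhibitor and so promotes entry into S phase. It had a log2 fold change of 0.80 (adjusted p = 3.98e-17, SE 0.09) per the authors' deposited table. CDKN1A, the p21 inhibitor of cyclin-dependent kinases and a p53 target, had a log2 fold change of 1.55 (adjusted p = 4.46e-88, SE 0.08), while CDKN2A, which encodes the p16 inhibitor of CDK4 and CDK6, had -1.18 (adjusted p = 1.63e-19, SE 0.13) per the authors' deposited table. The CDKN2A value is for the whole gene, with 14 annotated transcripts, and not for p16 alone. Among further G1/S kinases and E2F factors 3 of 12 were higher and 1 lower, with the repressor E2F7 at 1.62 (SE 0.46) and CDK2, the partner of cyclin E, at 0.90 (SE 0.23) per the authors' deposited table. The 1 lower was E2F3, at -0.80 (adjusted p = 1.68e-11, SE 0.11) per the authors' deposited table. E2F3 is named after its value was seen. The cycling markers MKI67, TOP2A, CCNB1 and CCNA2 were higher in 4 of 4, with log2 fold changes from 0.57 (CCNA2) to 0.70 (MKI67) per the authors' deposited table.

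Reads may be shared with neighbours for some of the 40. Exon bases overlap another annotated gene for 18 of them, by at least 10% of the gene's exon bases for 9, and for 11 the overlapping gene is itself in the table. RRM2 shares 20.2% of its exon bases with a protein-coding gene on the same strand (AC007240.1), which had a mean normalized count of 780 and a log2 fold change of 0.75 (adjusted p = 1.69e-09) per the authors' deposited table. Named pseudogenes are annotated for 8 of the 40, 14 in all, and each had a mean normalized count of at most 0.578 per the authors' deposited table. How the authors assigned such reads is not given in the sources used here.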

How the data were processed

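Total RNA was turned into libraries by a SMARTer kit for mRNA, per the labels' protocols. The submitters' processing notes name STAR, Salmon and hg38 and give no role or version. Per the file headers, the columns are those of a DESeq2 results table; which program and model made it, and which group is on top, is not stated in the labels or the header. The deposited mean is a normalized count over libraries, treated as a signal. The deposited fold change and error are log2 values, the deposited statistic is a score, and the deposited p-value and adjusted p-value were used as they stand. The statistic equalled the fold change over its error to within 4.23e-07, and Benjamini-Hochberg adjustment over 13957 genes gave the deposited adjusted p to within 3.66e-07.

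Gene IDs were matched without version to names (33483 of 33644) and to GENCODE 29 (33582), in which 37 of the 40 members have the same version. Levels used exon unions. Intervals are normal 95% intervals from the deposited error. For all 35 promoters, the first 30 bases after the start were looked for in GENCODE 29 transcripts of the gene; they were found for 29 and not for MCM6, GINS1, POLA1, RRM1, CDC25A and E2F2. Per-sample depth is unknown, and no test on values per sample was run. The adjusted p threshold was 0.05, and 7 alternatives were tried: a threshold of 0.01, a test against a 1.5-fold change, errors widened 2.03-fold to the spread of all statistics, no filter on low means, a minimum mean of 72.0 (5 per 1000000), protein-coding genes only, and centring by -0.01. The adjustment and the calls under these settings were run on simulated statistics with independent errors. Changes as small as those of most members were not simulated, nor were levels, overlaps and promoter matches. Every member is named, with the 2 largest called changes per further list and CDKN1A. SKP2, CDKN2D, E2F3, POLE3 and RBL2 were named outside this rule, after their values were seen. The list of HEK293 markers holds 10 genes, of which 1 is not reported here, so the check of the cell type given in the text is not the whole list. Members and lists were chosen with earlier results of these data known. Python 3.11.15, numpy 2.4.6, pandas 2.3.3, scipy 1.17.1 and matplotlib 3.10.9 were used.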

Additional observations from a re-analysis of the deposited data

How the results depend on the processing

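Of the 15 genes called higher, 2 passed the test against a 1.5-fold change (MCM3 and RFC5; 2.36% of all genes tested were called higher) and 6 passed with widened errors (MCM3, ORC6, RFC4, RFC5, RRM2 and TYMS; 4.30%). CCND3, the gene called lower, passed with widened errors and not against a 1.5-fold change, where 0 genes were lower, also by unadjusted p under 0.05 (2.31% of all genes tested were called lower). Of the further pathway genes, 2 were higher and 1 lower against a 1.5-fold change, and 8 were higher and 3 lower with widened errors. Under the other 5 alternatives these counts stayed within 1.5 times those reported. The median log2 fold change of the members ran from 0.32 to 0.39, the latter over the 33 left by the minimum mean. The range of levels was 2537-fold by the longest transcript. MCM3 and RFC5 were the 2 of 16 called genes that kept their call under all 7 alternatives. The other 14 lost theirs against a 1.5-fold change, and the share kept over all called genes was not computed. LIG1, CDC45, RFC3 and CDC25A were also lost at 0.01. No member changed sign, but none could have: only centring altered a fold change, by less than the value of any member. The cause of the losses of calls was not tested. No paired analysis was possible because the table holds no values per sample; leaving out each replicate could not be run for the same reason. Of 15 members with errors above 0.3, none was called; the other 9 members not called had smaller errors.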
